A study of Homo sapiens with 6 samples.

Results

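A set of 10 genes that hypoxia-inducible factors (HIFs) are known to activate, and that act outside glycolysis, was followed in cells given the compound XYA1353. They are VEGFA, ADM, NDRG1, BNIP3, BNIP3L, EGLN1, EGLN3, CA9, P4HA1 and KDM3A, chosen by name from the 60623 named human genes of the deposited table, and all 10 of the 10 names were found there. The study compared 3 libraries labelled control with 3 of cells given XYA1353, each taken at 48 h and labelled as the myeloma line RPMI-8226. Its title places the compound in work on myeloma and NF-κB signalling. The labels used here give neither a dose nor a vehicle, and they do not mention low oxygen or any manipulation of HIF. They leave unstated whether separate cultures were used, so each p-value measures the spread among 6 libraries that may be technical repeats.

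HIFs are pairs of an oxygen-sensitive alpha subunit and a stable partner, ARNT. When oxygen is present, prolyl hydroxylases of the EGLN family mark the alpha subunit, and VHL then directs it to the proteasome. When oxygen falls the subunit persists, enters the nucleus and binds a short element, a core of ACGTG or GCGTG, near its target genes. The targets outside glycolysis cover vessel growth, removal of mitochondria, acid balance, collagen modification, chromatin and the feedback arm of the pathway itself. Several of them also answer to other stress factors, and VEGFA is known as a target of ATF4, the transcription factor of the integrated stress response.

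The libraries did not carry the marker profile of a plasma cell. Of 12 plasma cell and myeloma markers, 10 stayed below 1 TPM (transcript abundance scaled by length and to a fixed library total) in every library, and CD38, TNFRSF17, JCHAIN, IGLC2 and IGHA1 were listed at 0 in all 6. All 12 erythroid markers had a mean of at least 10 TPM. The erythroid markers summed to between 9760 and 12167 TPM in control libraries and between 5958 and 15048 TPM in XYA1353 libraries. Endothelial, macrophage and fibroblast markers summed to at most 1.46, 14.8 and 2 TPM in any library, with CDH5 and TEK listed at 0 throughout. XBP1, a plasma cell factor also made by many secretory and stressed cells, was the sole plasma cell marker with a mean of at least 10 TPM. The cells are therefore called by their label only. In bulk RNA, fewer cells of a type and less RNA per cell cannot be told apart. The sequencing depth behind TPM values is unknown, and between 12892 and 13693 named genes reached 1 TPM in a library. Genes of the mitochondrial genome took 14.6% to 15.1% of all TPM in controls and 9.85% to 11.7% in XYA1353 libraries. The part of that shift in the results was not tested.

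The promoter sequences below are shown to set the HIF core element in a member called lower (BNIP3) beside members called higher (P4HA1, KDM3A) or not called (EGLN1). The calls of BNIP3, P4HA1 and KDM3A are not firm. Of 14 alternative settings, BNIP3 lost its call in 10, P4HA1 in 7 and KDM3A in 8. They are the 250 bases before the most upstream start listed for each gene in the RefSeq promoters used, on GRCh38.p14. Of the 10 members, 7 were found there. RefSeq starts differ from the GENCODE gene spans printed further on, so that the EGLN1 and KDM3A windows lie inside those spans and the BNIP3 and P4HA1 windows overlap theirs. VEGFA, NDRG1 and BNIP3L, whose higher calls were kept in every setting that tested them, were not matched. Capitals mark every match to ACGTG or GCGTG on either strand, so that CACGT and CACGC are marked too, and the palindrome CACGTG counts once on each strand.
BNIP3 (chr10:131981924-131982173, minus strand): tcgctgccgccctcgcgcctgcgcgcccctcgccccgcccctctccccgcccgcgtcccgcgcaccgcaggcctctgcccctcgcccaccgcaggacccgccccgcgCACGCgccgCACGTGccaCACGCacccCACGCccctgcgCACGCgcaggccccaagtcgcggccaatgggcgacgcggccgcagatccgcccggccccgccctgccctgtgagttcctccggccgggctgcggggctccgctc
P4HA1 (chr10:73096867-73097116, minus strand): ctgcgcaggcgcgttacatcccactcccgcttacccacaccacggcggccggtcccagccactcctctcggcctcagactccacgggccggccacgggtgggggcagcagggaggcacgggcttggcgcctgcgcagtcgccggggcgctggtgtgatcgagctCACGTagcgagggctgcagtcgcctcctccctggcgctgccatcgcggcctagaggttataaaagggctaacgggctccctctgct
KDM3A (chr2:86441121-86441370, plus strand): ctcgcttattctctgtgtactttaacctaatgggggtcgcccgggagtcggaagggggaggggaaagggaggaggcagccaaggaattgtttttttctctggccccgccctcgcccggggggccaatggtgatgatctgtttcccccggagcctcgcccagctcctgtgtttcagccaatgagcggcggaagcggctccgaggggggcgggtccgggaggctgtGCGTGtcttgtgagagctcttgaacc
EGLN1 (chr1:231422288-231422537, minus strand): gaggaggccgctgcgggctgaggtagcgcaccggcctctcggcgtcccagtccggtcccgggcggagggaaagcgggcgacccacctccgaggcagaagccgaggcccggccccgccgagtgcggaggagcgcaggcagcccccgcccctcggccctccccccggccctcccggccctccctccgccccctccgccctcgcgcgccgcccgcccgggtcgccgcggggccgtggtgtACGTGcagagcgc
The BNIP3 window held 6 matches, between 143 and 104 bases before the start, and 0.646% of the 35116 promoters of this length held at least as many. P4HA1, KDM3A, EGLN1, ADM and CA9 held 1 match each, beside 43.2% of promoters with at least 1, and the EGLN3 window held 0. A match is a string of letters in this window and no evidence that a factor bound there.

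Among the members VEGFA rose most, and the others spread from a rise in BNIP3L to a fall in BNIP3. On the log2(TPM + 1) scale VEGFA, BNIP3L, NDRG1, P4HA1 and KDM3A were called higher and BNIP3 was called lower, by limma at a Benjamini-Hochberg adjusted p under 0.05 over all 13392 genes tested. EGLN1 and EGLN3 were not called. ADM and CA9 had a mean under 1 TPM and were not tested. The 5 higher and 1 lower of 8 tested members stand beside 15.4% of all tested genes called higher and 16.0% called lower. Those 6 members were also the ones whose groups did not overlap, as was so for 23.8% of all tested genes upward and 23.8% downward. Leaving out any single library except XYA1353 replicate 3 left 3 members called higher and 0 lower. The median log2 fold change over the 8 tested members was 0.51, beside 0.02 over all genes tested.

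**Figure D1:**
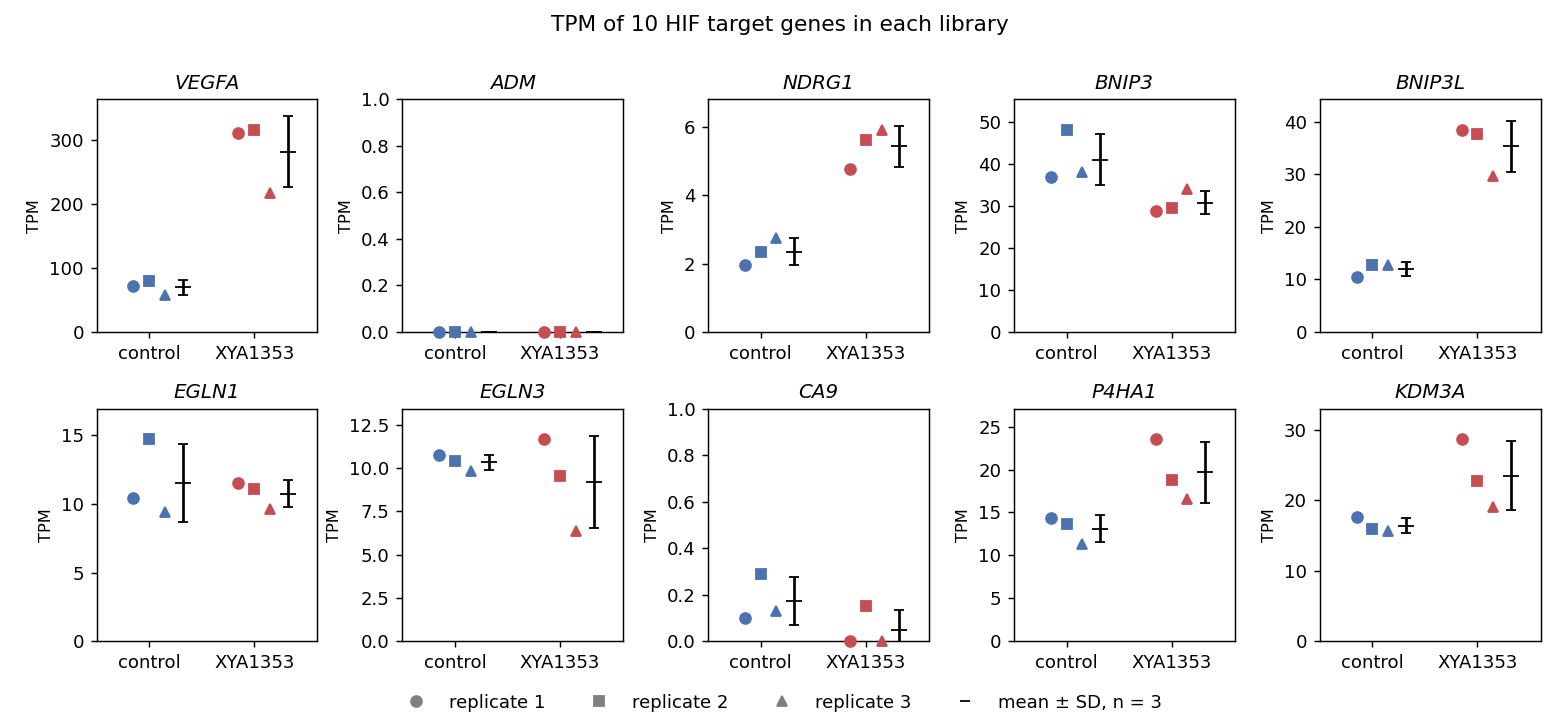
TPM of each of the 10 genes (vertical axis, from 0, with its own scale per gene) in the 3 control and 3 XYA1353 libraries, with symbols for the replicate number and the mean ± SD beside them. VEGFA, BNIP3L, NDRG1, P4HA1 and KDM3A lie higher in every XYA1353 library than in any control library, BNIP3 lies lower, EGLN1 and EGLN3 overlap, and ADM is listed at 0.

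VEGFA encodes the secreted growth factor that drives the growth of blood vessels (ENSG00000112715, GRCh38 chromosome 6, 43770184 to 43786487, plus strand). It stood at 71.47, 79.79 and 57.47 TPM in control replicates 1, 2 and 3, and at 310.89, 315.59 and 217.31 TPM in treated replicates 1, 2 and 3. Every treated library was above each control library, and XYA1353 replicate 3 was the lowest of the treated libraries. The means were 69.6 ± 11.3 and 281 ± 55.4 TPM (SD, n = 3), a ratio of 4.04. VEGFA rose by 1.99 on the log2 scale (SE 0.17, limma adjusted p = 0.00122). That change ranked 78 of 13392 from the top. The call was kept in all 14 alternative settings, with log2 fold changes from 1.86 to 2.17.

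A gene annotated on the opposite strand lies inside the VEGFA gene, AL136131.3 (chromosome 6, 43770429 to 43770616, minus strand), 188 bases long. It was listed at 0, 38.62 and 0 TPM in control replicates 1, 2 and 3, and at 39.69, 159.02 and 0 TPM in the treated ones. The sources used here do not say whether counting used the strand, so reads of this short gene and of VEGFA cannot be told apart. Where the antisense gene was listed at 0, VEGFA stood at 217.31 TPM in XYA1353 replicate 3 and at 71.47 and 57.47 TPM in control replicates 1 and 3. That comparison rests on a single treated library, and the part of the antisense gene in the VEGFA rise was not tested.

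VEGFB, the related ligand of the same receptor family, was the sole tested member of 9 listed VEGF family and receptor genes. It stood at 37.95, 40.23 and 34.74 TPM in control replicates and at 72.66, 67.15 and 66.72 TPM in the treated ones. It rose by 0.86 (SE 0.08, limma adjusted p = 0.00125). Within a library, the TPM of VEGFA was 1.65 to 1.98 times that of VEGFB in controls and 3.26 to 4.70 times in XYA1353 libraries. The receptor genes FLT1, KDR, FLT4, NRP1 and NRP2, and the ligand genes VEGFC, VEGFD and PGF, all had a mean under 1 TPM.

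ADM, which encodes the vasodilator peptide adrenomedullin (chromosome 11, 10304680 to 10307397, plus strand), was listed at 0 TPM in all 6 libraries. Of its receptor genes CALCRL, RAMP1, RAMP2 and RAMP3, none reached a mean of 1 TPM. ADM2, a gene for a related peptide named here after its values were seen, stood at 1.69, 2.98 and 1.90 TPM in controls and at 8.85, 7.45 and 6.82 TPM in XYA1353 libraries. It rose by 1.46 on the log2 scale (limma adjusted p = 0.00231).

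CA9 encodes a carbonic anhydrase of the cell surface that is widely used as a marker of hypoxia (chromosome 9, 35673856 to 35681159, plus strand). It was listed at 0.1, 0.29 and 0.13 TPM in controls and at 0, 0.15 and 0 TPM in XYA1353 libraries. The groups overlapped at levels far under the 1 TPM needed for a test. ARHGEF39, which overlaps CA9 on the opposite strand, reached 14.95 TPM. CA12, a relative of CA9, also had a mean under 1 TPM. CA2, an abundant cytosolic carbonic anhydrase of red cells, fell from 25.6 ± 2.56 to 11.1 ± 2.30 TPM (SD, n = 3; log2 difference -1.15, SE 0.15, limma adjusted p = 0.00229).

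BNIP3 and BNIP3L encode related proteins of the outer mitochondrial membrane that recruit the autophagy machinery, and BNIP3L, also called NIX, clears mitochondria from maturing red cells. They went in opposite directions. BNIP3L (ENSG00000104765, chromosome 8, 26382898 to 26505636, plus strand) was at 10.43, 12.68 and 12.79 TPM in controls and at 38.45, 37.71 and 29.69 TPM in XYA1353 libraries. It was above every control in each treated library and rose by 1.48 (SE 0.13, limma adjusted p = 0.00123), a call kept in all 14 alternative settings.

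BNIP3 (ENSG00000176171, chromosome 10, 131966455 to 131982013, minus strand) was at 37.06, 48.23 and 38.11 TPM in controls and at 28.98, 29.57 and 34.10 TPM in XYA1353 libraries. The groups did not overlap, but the gap between 34.10 and 37.06 TPM was smaller than the range within either group. BNIP3 was called lower, at -0.40 on the log2 scale (SE 0.12, limma adjusted p = 0.0428). That call was lost with the replicate number as a block (limma adjusted p = 0.053). It was also lost when any single library except XYA1353 replicate 3 was left out (limma adjusted p from 0.0567 to 0.13). The value stayed negative in each of the 14 settings, from -0.47 to -0.28. The 39 annotated BNIP3 pseudogenes, whose reads can mix with those of the gene, summed to 3.48, 3.05 and 2.3 TPM in controls and to 5.8, 3.96 and 5.19 TPM in XYA1353 libraries. That sum was higher in every treated library, opposite to BNIP3, and its part in the BNIP3 result was not tested.

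The balance between the pair, taken within each library, differed between the groups. BNIP3L stood at 0.281, 0.263 and 0.336 times the TPM of BNIP3 in control replicates 1, 2 and 3. In XYA1353 replicates 1, 2 and 3 the ratio was 1.33, 1.28 and 0.871. The more distant relatives BNIP1 and BNIP2 were not called.

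**Figure D2:**
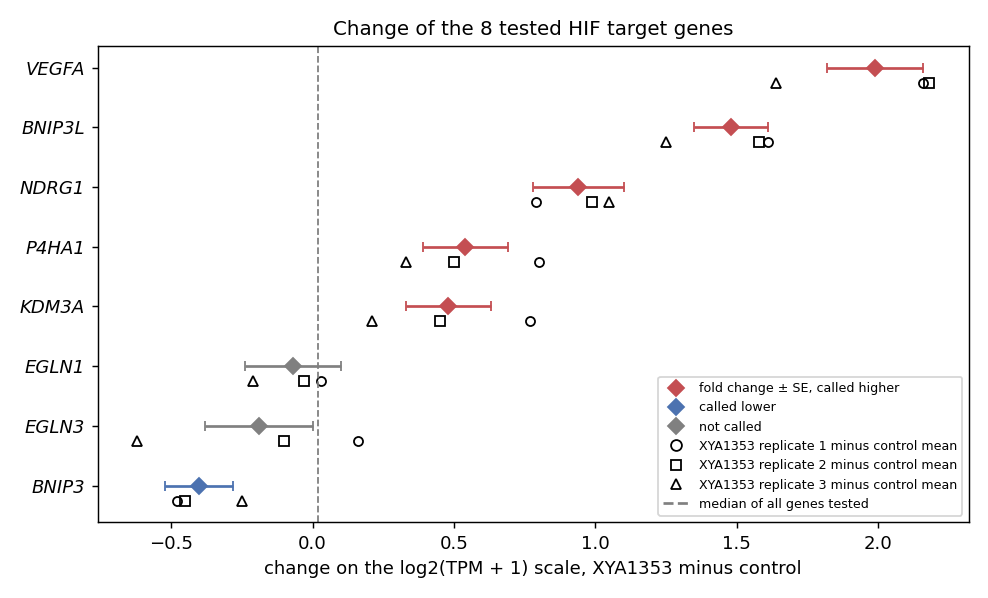
Change of the 8 tested genes (horizontal axis, log2(TPM + 1) scale, XYA1353 minus control): diamonds with bars are the limma fold change ± SE, open symbols are single XYA1353 libraries against the control mean, and the dashed line is the median of all genes tested, 0.02. VEGFA at 1.99 and BNIP3L at 1.48 lie farthest to the right, and BNIP3 at -0.40 lies to the left.

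NDRG1 encodes a cytoplasmic protein induced by hypoxia and other stresses and linked to differentiation (ENSG00000104419, chromosome 8, 133237171 to 133302022, minus strand). It stood at 1.97, 2.33 and 2.75 TPM in controls and at 4.76, 5.62 and 5.92 TPM in XYA1353 libraries. All treated libraries were higher, and XYA1353 replicate 3, the lowest for VEGFA, was the highest here. NDRG1 rose by 0.94 (SE 0.16, limma adjusted p = 0.00475), and the call held in the 13 alternative settings that tested it. With a pseudocount of 0.1 the rise was 1.18. Its relative NDRG3 fell by 0.46 (limma adjusted p = 0.00832), NDRG2 was not called (log2 difference -0.32, limma adjusted p = 0.0824) except lower with the replicate block (limma adjusted p = 0.0267), and NDRG4 had a mean under 1 TPM.

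P4HA1 encodes a catalytic subunit of the prolyl hydroxylase that modifies collagen (ENSG00000122884, chromosome 10, 73007217 to 73096974, minus strand). It stood at 14.33, 13.68 and 11.34 TPM in controls and at 23.55, 18.83 and 16.61 TPM in XYA1353 libraries. The groups did not overlap, and P4HA1 rose by 0.54 (SE 0.15, limma adjusted p = 0.0294). That call was lost when any single library except XYA1353 replicate 3 was left out (limma adjusted p from 0.0549 to 0.101).

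P4HA2 and P4HB, the other subunits of the same enzyme that were tested, moved in that direction too, while P4HA3 had a mean under 1 TPM. P4HA2, an alternative catalytic subunit, stood at 9.67, 9.40 and 6.58 TPM in controls and at 17.91, 14.15 and 12.64 TPM in XYA1353 libraries. It rose by 0.74 (SE 0.18, limma adjusted p = 0.019), a call lost without control replicate 3 or XYA1353 replicate 1 or 2 (limma adjusted p from 0.0564 to 0.0627). P4HB, the shared protein disulfide isomerase subunit, rose by 0.24 (limma adjusted p = 0.0292), which was lost when any single library except XYA1353 replicate 3 was left out (limma adjusted p from 0.0783 to 0.103).

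KDM3A encodes a histone demethylase that removes a repressive mark (ENSG00000115548, chromosome 2, 86440647 to 86492716, plus strand). It stood at 17.59, 15.85 and 15.64 TPM in controls and at 28.65, 22.73 and 19.06 TPM in XYA1353 libraries. The treated libraries spread more widely than the controls, and the lowest of them lay above the highest control. KDM3A rose by 0.48 (SE 0.15, limma adjusted p = 0.0435), and the call was lost when any single library except XYA1353 replicate 3 was left out (limma adjusted p from 0.0794 to 0.128). Its relatives KDM3B and JMJD1C were not called, although JMJD1C was called higher without XYA1353 replicate 3 (0.60, limma adjusted p = 0.0113).

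The feedback members of the pathway gave no call. EGLN1, the main prolyl hydroxylase acting on HIF alpha subunits (chromosome 1, 231363751 to 231425044, minus strand), was measured at 10.43, 14.72 and 9.41 TPM in controls and at 11.54, 11.08 and 9.62 TPM in XYA1353 libraries. All treated values lay within the control range (log2 difference -0.07, SE 0.17, limma adjusted p = 0.772). EGLN3, a hydroxylase of the same family that HIF strongly induces in many cells (chromosome 14, 33924231 to 34462774, minus strand), was measured at 10.72, 10.38 and 9.83 TPM in controls and at 11.66, 9.52 and 6.35 TPM in XYA1353 libraries. Treated values lay on both sides of the controls (log2 difference -0.19, SE 0.19, limma adjusted p = 0.498). The annotated span of EGLN3 also holds SPTSSA on the same strand, at up to 17.26 TPM. Neither direction held: the value was 0.10 for EGLN1 without control replicate 2 and 0.03 for EGLN3 without XYA1353 replicate 3.

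Members also differed in their level. In controls the order by TPM was VEGFA, BNIP3, KDM3A, P4HA1, BNIP3L, EGLN1, EGLN3, NDRG1, CA9 and ADM, and the ranges of neighbours from P4HA1 to EGLN3 overlapped. In XYA1353 libraries BNIP3L came after VEGFA in the order and overlapped BNIP3, while KDM3A overlapped P4HA1 and EGLN1 overlapped EGLN3. VEGFA at 281 TPM then stood apart from BNIP3L at 35.3 TPM.

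Whether VEGFA moved with the rest was asked within each library, where a scaling of the whole library nearly cancels. Measured against its own control mean, VEGFA was higher by 2.16, 2.18 and 1.64 on the log2 scale in XYA1353 replicates 1, 2 and 3. The mean of the other 7 tested members was higher by 0.53, 0.42 and 0.25 in the same libraries. The difference between VEGFA and that mean was 1.63, 1.76 and 1.39, against -0.20 to 0.11 in controls. All 3 libraries thus had VEGFA well above the mean of the others, and XYA1353 replicate 3 had the smallest change of both.

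Taken gene by gene, VEGFA rose more than each of the 7 others. Its log2 change exceeded that of BNIP3L by 0.51, NDRG1 by 1.05, P4HA1 by 1.45, KDM3A by 1.51, EGLN1 by 2.06, EGLN3 by 2.18 and BNIP3 by 2.39. A limma fit of the within-library ratio to VEGFA called all 7 differences, with adjusted p from 1.21e-09 for BNIP3 to 0.046 for BNIP3L. The same fit called 97.5% of all genes as rising less than VEGFA, so these calls show the size of the VEGFA rise and nothing particular to the members. The spread of VEGFA enters every ratio, which makes those p-values too small. By the exact permutation test each of the 7 differences had a two-sided p of 0.1, the smallest that 3 against 3 libraries allow. The BNIP3L difference is the least firm, since it was lost when any single library except XYA1353 replicate 3 was left out (limma adjusted p from 0.0569 to 0.191). For NDRG1, a gene of low TPM, the size of the difference from VEGFA depended on the scale. It was -0.82 with a pseudocount of 0.1 (limma adjusted p = 0.021) and -1.34 with quantile normalization (limma adjusted p = 9.32e-05).

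The genes outside the members whose pattern over the 6 libraries lay nearest to VEGFA were KLF6, EPAS1, IRF1, ANKRD33B and TRAPPC6A. Likeness was the Euclidean distance between profiles of log2(TPM + 1) minus the control mean, over 9892 genes with a mean of at least 5 TPM. Those distances ran from 0.35 for KLF6 to 0.43 for TRAPPC6A, against 1.00 for BNIP3L and 1.98 for NDRG1, the nearest members. Such a distance depends largely on the size of the change. The nearest genes rose by 1.81 (EPAS1) to 2.09 (TRAPPC6A), beside 1.99 for VEGFA, and the larger distances of the members mostly restate their smaller changes. Shared control with VEGFA was not tested. KLF6 encodes a zinc finger transcription factor and stood at 11.73, 12.81 and 10.74 TPM in controls and at 63.08, 56.11 and 32.41 TPM in XYA1353 libraries. IRF1, an interferon regulatory factor gene, stood at 3.21 to 3.31 TPM in controls and at 13.35 to 19.99 TPM in XYA1353 libraries.

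EPAS1, at a distance of 0.39, is itself a HIF gene and encodes the alpha subunit also known as HIF-2 alpha. It stood at 6.52, 7.67 and 6.08 TPM in controls and at 31.89, 30.15 and 18.51 TPM in XYA1353 libraries, and rose by 1.81 (SE 0.21, limma adjusted p = 0.00167). HIF1A, which encodes the other main alpha subunit, stood at 18.04, 11.33 and 11.55 TPM in controls and at 10.77, 11.07 and 11.76 TPM in XYA1353 libraries. Only control replicate 1 stood apart, and HIF1A was not called (log2 difference -0.23, SE 0.18, limma adjusted p = 0.348). EPAS1 stood at 0.361 to 0.677 times the TPM of HIF1A in controls and at 1.57 to 2.96 times in XYA1353 libraries. HIF alpha subunits are controlled mainly as proteins, which these data do not measure.

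**Figure D3:**
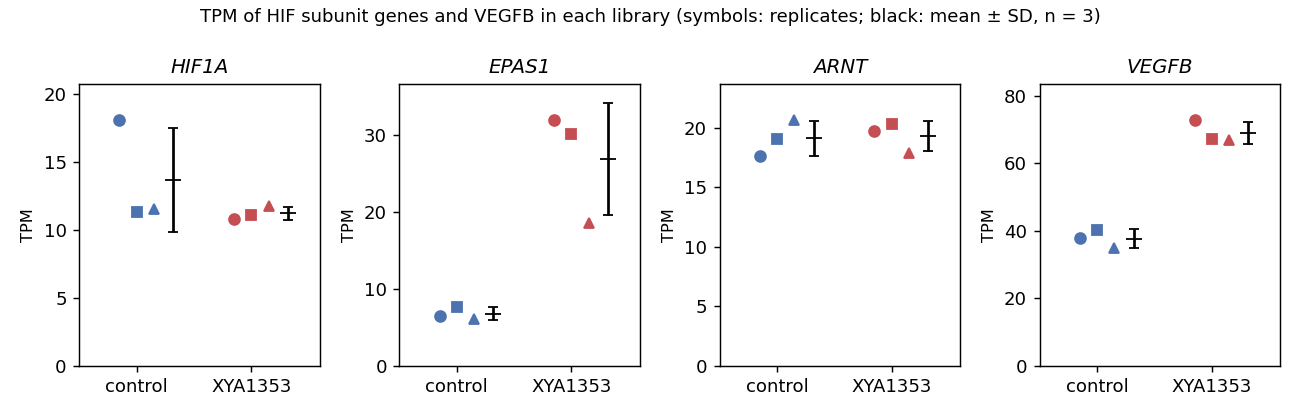
TPM (vertical axis, from 0) of the HIF subunit genes HIF1A, EPAS1 and ARNT and of VEGFB in 3 control and 3 XYA1353 libraries, with the mean ± SD. EPAS1 and VEGFB lie higher in every XYA1353 library than in any control library, while HIF1A and ARNT overlap.

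Of 15 HIF subunits and regulators, 13 were tested, 2 rose, 2 fell and 9 gave no call, shares near the 15.4% higher and 16.0% lower of all tested genes. Their median log2 difference was -0.04. The other gene that rose was EGLN2, the third hydroxylase, by 0.27 (limma adjusted p = 0.0342), a call lost when any single library was left out except XYA1353 replicate 1 (limma adjusted p from 0.0613 to 0.113). CUL2 fell by 0.58 (limma adjusted p = 0.00589) and ELOC by 0.31 (limma adjusted p = 0.0338). Both belong to the ubiquitin ligase that VHL forms, and the ELOC call was lost without control replicate 1 or 2 or XYA1353 replicate 1 or 2 (limma adjusted p from 0.0621 to 0.108). ARNT (log2 fold change 0.01, limma adjusted p = 0.931) and HIF1AN, the asparagine hydroxylase of HIF (-0.04, limma adjusted p = 0.888), were not called.

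VHL stood at 40.77, 44.82 and 38.27 TPM in controls and at 58.52, 54.66 and 43.55 TPM in XYA1353 libraries. XYA1353 replicate 3 lay inside the control range, and VHL was not called (log2 fold change 0.32, limma adjusted p = 0.0814). It was called higher with the replicate number as a block (limma adjusted p = 0.0416), with quantile normalization (0.37, limma adjusted p = 0.0487) and without XYA1353 replicate 3 (0.45, limma adjusted p = 0.0134).

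Other HIF targets outside glycolysis included genes that rose and genes that fell. Of 41 listed, 27 were tested, of which 6 rose, 2 fell and 19 gave no call, beside 15.4% of all tested genes higher and 16.0% lower. Their median log2 difference was 0.12. BHLHE40, a repressor of transcription, stood at 15.60 to 28.09 TPM in controls and at 61.08 to 88.44 TPM in XYA1353 libraries and rose by 1.77 (limma adjusted p = 0.00198). DDIT4, a brake on mTORC1 signalling that is also on the ATF4 list, stood at 30.66, 142.68 and 109.44 TPM in controls and at 300.94, 404.63 and 356.30 TPM in XYA1353 libraries. Control replicate 1 lay far below the other controls. DDIT4 rose by 2.15 (limma adjusted p = 0.0176), a call lost without XYA1353 replicate 1 or 2 (limma adjusted p of 0.0507 and 0.0704). Without control replicate 1 the rise was 1.48 (limma adjusted p = 0.00918). FAM162A, a mitochondrial protein gene, fell by 0.77 (limma adjusted p = 0.00334) and AK4, a mitochondrial adenylate kinase gene, by 0.58 (limma adjusted p = 0.00707).

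**Figure D4:**
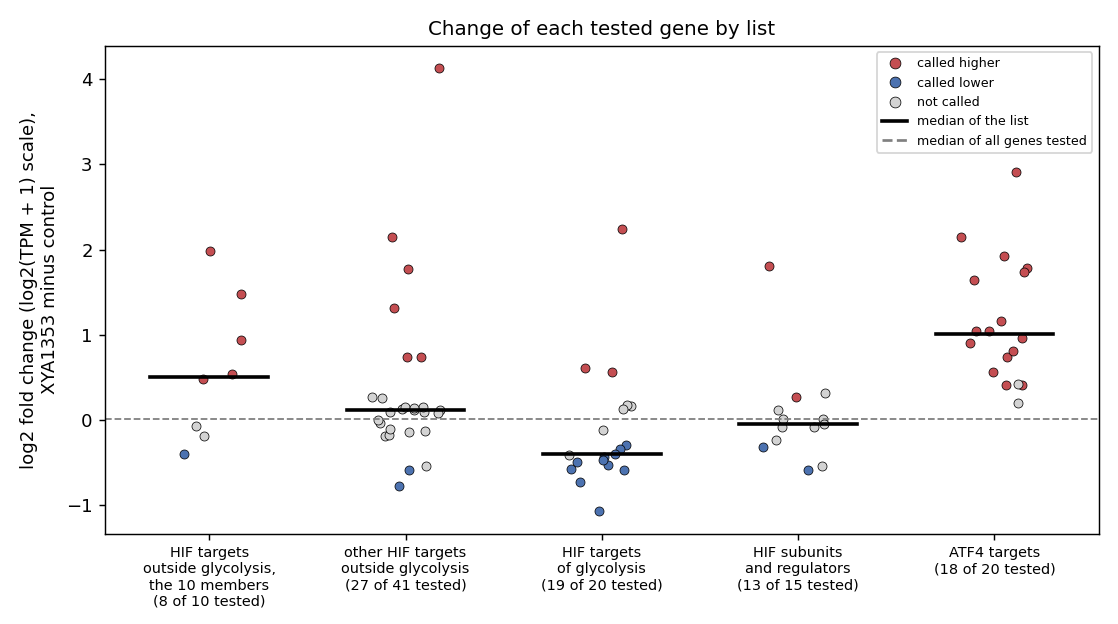
Log2 fold change (vertical axis, log2(TPM + 1) scale, XYA1353 minus control) of each tested gene in 5 lists, with points coloured by limma call, black bars at the list median and the dashed line at the median of all genes tested. The medians are 0.51 for the members, 0.12 for other HIF targets outside glycolysis, -0.40 for HIF targets of glycolysis, -0.04 for HIF subunits and regulators, and 1.01 for ATF4 targets.

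More of the HIF targets of glycolysis fell than rose. Of 20 listed, 19 were tested, and 3 rose, 11 fell and 5 gave no call, where 15.4% of all tested genes rose and 16.0% fell. Their median log2 difference was -0.40. HK2, a hexokinase gene, fell by 1.07, LDHA, of lactate dehydrogenase, by 0.73 and PGAM1, a phosphoglycerate mutase gene, by 0.58 (limma adjusted p of 0.00239, 0.00122 and 0.00185). ENO2, an enolase gene, rose by 2.24, PFKFB4, of a regulator of phosphofructokinase, by 0.61 and PFKL, a phosphofructokinase gene, by 0.56 (limma adjusted p of 0.00145, 0.0396 and 0.00196). The PFKFB4 call was lost when any single library except control replicate 2 was left out (limma adjusted p from 0.0746 to 0.126). It was also lost with the replicate block (limma adjusted p = 0.0649), quantile normalization, no filter on low values and a minimum mean of 5 TPM.

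Most of the tested targets of ATF4 were called higher in XYA1353 libraries. Of 20 listed, 18 were tested, 16 rose, 0 fell and 2 gave no call, against 15.4% of all tested genes higher and 16.0% lower. This list was chosen with earlier results of these data known, so its count describes the listed genes and is no independent test. DDIT4 and STC2, both called higher, are also on the list of other HIF targets outside glycolysis. Their median log2 difference was 1.01. The lowest log2 fold change among the 18 was 0.20. DDIT3, the gene of the stress factor CHOP, stood at 20.06, 23.26 and 18.68 TPM in controls and at 231.20, 169.44 and 107.53 TPM in XYA1353 libraries. ATF3, another stress-induced transcription factor gene, rose by 1.93 (limma adjusted p = 0.0149), which was lost without control replicate 3 (limma adjusted p = 0.0603). Whether ATF4 or HIF-2 alpha had a part in the VEGFA rise was not tested.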

How the data were processed

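RNA was sequenced from 3 control and 3 XYA1353 libraries, made with a SMARTer kit from RNA isolated with an RNeasy kit, per the labels' protocols. The deposited values were TPM per gene, computed by the authors for each library, in a table of 61206 rows, of which 60623 had a human Ensembl identifier and a name. Depth is unknown, so no counting interval can be given. GRCm38 (mm10), a mouse build, is listed in the submitters' processing notes, although the identifiers are human. For the aligner, counter and annotation, the sources used here give nothing. Coordinates are those of GENCODE on GRCh38, matched by identifier, and promoters are from RefSeq on GRCh38.p14. The authors' group means were not used.

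Named genes with a mean of at least 1 TPM (13392) were transformed as log2(TPM + 1), which understates changes of low genes. They were fitted with limma 3.58.1 in R 4.3.3 (eBayes with a mean-variance trend, no covariate), two-sided, with Benjamini-Hochberg adjustment over all genes tested and a threshold of 0.05. The step was checked on simulated data. Tables and figures used Python 3.11.15 with pandas 2.3.3, scipy 1.17.1 and matplotlib 3.10.9. The members and gene lists were chosen with earlier results of these data known, so their counts beside the shares of all genes are descriptive. A repeated symbol was represented by its row with the highest mean TPM. All members and 6 HIF pathway genes were named whatever their values. From each other list, up to 3 called genes per direction were named, by size of change among those averaging 5 TPM or more, and other relatives were added after their values were seen. One gene that this rule names is not reported here. The 14 alternative settings changed the scaling, pseudocount, filter, variance model, replicate block and libraries.

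The replicate numbers come from the sample titles. Deviations from the group means over 13392 genes correlated at 0.111, 0.114 and 0.133 for libraries with the same number and at -0.116 to -0.00187 for the others. Deviations cancel within a group, so positive values for some pairs force negative values for others, which widens the contrast. By this measure libraries with the same number were slightly more alike, and the labels do not say why. Neither the main fit nor the exact permutation test paired the libraries, and the replicate block was used only as an alternative setting.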

Additional observations from a re-analysis of the deposited data

How the results depend on the processing

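VEGFA and BNIP3L kept their calls in all 14 alternative settings, and NDRG1 in the 13 that tested it. The count of members called higher was 3 in place of 5 with no filter on low values and 3 to 5 without a library. The count called lower was 0 in place of 1 with quantile normalization, with no filter, without a variance trend and with the replicate block, and 0 to 1 without a library.

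BNIP3 had log2 fold changes of -0.38 with quantile normalization and -0.40 with no filter, without a trend and with the replicate block (limma adjusted p of 0.0571, 0.1, 0.0673 and 0.053), and of -0.47 to -0.28 without a library. KDM3A stood at 0.48 with no filter and without a trend (limma adjusted p of 0.107 and 0.0624), and at 0.33 to 0.61 without a library. P4HA1 stood at 0.54 with no filter (limma adjusted p = 0.0778), and at 0.41 to 0.65 without a library. The BNIP3L difference from VEGFA was -0.46 with a pseudocount of 0.1 and -0.51 without a trend (limma adjusted p of 0.0747 and 0.0618), and -0.63 to -0.34 without a library. Without replicate 1 of both groups these 4 values were -0.42, 0.38, 0.47 and -0.61 (limma adjusted p of 0.134, 0.114, 0.0988 and 0.163). EGLN1 ran from -0.19 to 0.10 and EGLN3 from -0.36 to 0.03 without a library. ARNT was -0.02 with quantile normalization, -0.04 to 0.07 without 1 library and -0.06 without replicate 1 of both groups, and HIF1AN ran from -0.18 to 0.14. Without a library, BNIP2 ran from -0.10 to 0.11, with -0.04 without replicate 1 of both groups, and KDM3B from -0.09 to 0.00.

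Over all genes, 2067 were called higher and 2143 lower, against 649 to 2350 and 783 to 2110 without a library; the lowest counts came without replicate 1 of both groups. Among single libraries, leaving out control replicate 1, control replicate 3 or XYA1353 replicate 2 gave 1342, 1360 and 1200 higher, and leaving out XYA1353 replicate 2 gave 1408 lower. The replicate block gave 2110 and 2176. HIF subunits and regulators called higher numbered 1 with median-of-ratios scaling, with no filter and without a trend, and 1 to 2 without a library. Those called lower numbered 1 with quantile normalization, with no filter and without a trend, and 1 to 3 without a library. Paralogues called higher numbered 1 with no filter, 2 without a trend and 1 to 4 without a library. Those called lower numbered 2 without any 1 library and 1 without replicate 1 of both groups. Without 1 library, ATF4 targets called higher ran from 12 to 17, glycolysis genes called lower from 10 to 11, and other HIF targets from 4 to 6 higher and 2 to 3 lower. Without replicate 1 of both groups these counts were 8, 6, 3 and 1. The cause of these shifts was not tested, though fewer libraries were fitted where some were left out. The adrenomedullin receptor genes, none of which reached a mean of 1 TPM, were left out of these counts. Of the named genes, the replicate block changed the calls of BNIP3, PFKFB4, VHL and NDRG2. Among those outside the members, ATF3, DDIT4, EGLN2, ELOC, P4HA2, P4HB and PFKFB4 lost their calls with no filter. EGLN2, ELOC and P4HB lost theirs without a trend, ELOC and PFKFB4 with quantile normalization, and EGLN2 with median-of-ratios scaling. Without replicate 1 of both groups, AK4, EGLN2, ELOC, NDRG3, P4HA2, P4HB and PFKFB4 lost theirs. The 3 libraries per group and the unknown depth limit all of these values.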
